A study of Mus musculus with 6 samples.

Results

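Chaperone and proteasome genes were examined in activated CD4+ T cells of UTX TCD and WT mice, which differ by label in UTX, the histone H3 lysine 27 demethylase encoded by Kdm6a. The genes were chosen by symbol alone: rows beginning with Hsp, Dnaj, Cct and a digit, Fkbp, Pdia, Bag and a digit, Ppia to Ppil, Psma to Psmg and a digit, or Pfdn, together with Tcp1 and Hyou1. This gave 68 of the 4162 genes in the deposited count table, of which 26 encode proteasome subunits or assembly factors, 39 encode chaperones or folding enzymes and 3 are pseudogenes. RNA of 3 UTX TCD mice and 3 WT mice was sequenced in bulk, 1 library per mouse. Both genotypes are on the B6 background, and UTX TCD animals are labelled as lacking UTX in T cells only. Neither the promoter that drives the deletion nor the animals' ages were given in the sources used here. Naive splenic CD4+ T cells of both genotypes, enriched with magnetic beads, had been cultured for 48 h with anti-CD3 on the plate and anti-CD28 in solution.

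Chaperones bind unfolded proteins and help them fold. Hsp70 proteins bind and release short hydrophobic stretches in a cycle driven by ATP, DnaJ proteins bring them their clients and stimulate ATP hydrolysis, and nucleotide exchange factors reset the cycle. The chaperonins (Hsp60 with Hsp10 in mitochondria, the CCT ring in the cytosol) enclose a client in a chamber, and prefoldin hands nascent actin and tubulin to CCT. Cyclophilins turn proline bonds and protein disulfide isomerases rearrange disulfide bonds. The proteasome degrades ubiquitin-tagged proteins: its barrel, the 20S core, holds the proteolytic sites, and the 19S regulatory particle on the barrel's ends recognises, unfolds and feeds in the substrate. T cells that are activated through their antigen receptor grow and raise protein synthesis, and many of these genes are induced then.

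The table covers part of the transcriptome. Its columns summed to 8363326, 9220586 and 9497542 counts in UTX TCD replicates 1, 2 and 3, against 10288306, 9297887 and 8823939 counts in WT replicates 1, 2 and 3, and these totals are not the depth of the libraries. Among the 4118 genes tested, 1 gene had a log2 fold change between 0 and 0.1 and 5 lay between 0.1 and 0.2, against 602 between -0.3 and -0.2 and 283 between 0.3 and 0.4. A row is therefore present mainly where the genotypes differ, by a rule not stated in the labels or the table, and no count of changed genes stands for the whole transcriptome. Kdm6a had 188, 207 and 179 CPM (counts scaled to a common library total) in UTX TCD replicates 1, 2 and 3, against 286, 281 and 281 CPM in WT, with groups apart by -0.56 ± 0.09 on the log2 scale (edgeR adjusted p = 0.0029). The UTX TCD level was thus 0.676 times that of WT. Counts were per gene, the deleted stretch was not measured apart from the rest of Kdm6a and UTX protein was not measured here, so these values leave the extent of UTX loss unmeasured. The biological coefficient of variation was 22.3% among UTX TCD and 8.01% among WT libraries. Of the T cell markers looked for, 2 of 9 had a row: Cd2 with 969, 1675 and 914 CPM in UTX TCD against 611, 492 and 555 CPM in WT, and Lck with 1348, 1360 and 1416 CPM against 1535, 1490 and 1496 CPM. Of 2 CD8 T cell markers 1 had a row, Cd8b1, with 31.4, 56.2 and 40.8 CPM in UTX TCD against 11.6, 14.5 and 12.8 CPM in WT. Of 4 NK cell markers 1 had a row, Eomes, with 22.9, 49.1 and 44.0 CPM in UTX TCD against 21.9, 27.0 and 57.6 CPM in WT. Its groups overlapped and it did not pass (edgeR adjusted p = 0.76). For B cells and myeloid cells 0 of 7 and 0 of 7 markers had a row. Markers without a row, Cd4 and the CD3 chains among them, were not analysed here.

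Most of the listed chaperone and proteasome genes had slightly lower levels in UTX TCD cells. Of the 68 genes, all passed the low-count filter, 30 fell and 4 rose in UTX TCD cells at an adjusted p under 0.05 in edgeR's quasi-likelihood test, and 34 did not pass. Among all 4118 genes tested, 27.0% were called lower and 41.1% higher, 68.1% in either direction. The median log2 fold change was -0.25 over the 68 genes and -0.15 over all genes tested. Of the members, 63 had a negative log2 fold change, and 30 of these, 47.6%, were called lower, against 1111 of 2201, or 50.5%, of all tested genes with a negative value. The members' negative values had a median of -0.26, against -0.32 for all tested genes with a negative value. The share of lower calls among negative values was thus close to that of the whole table, while few members lay on the positive side.

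**Figure D1:**
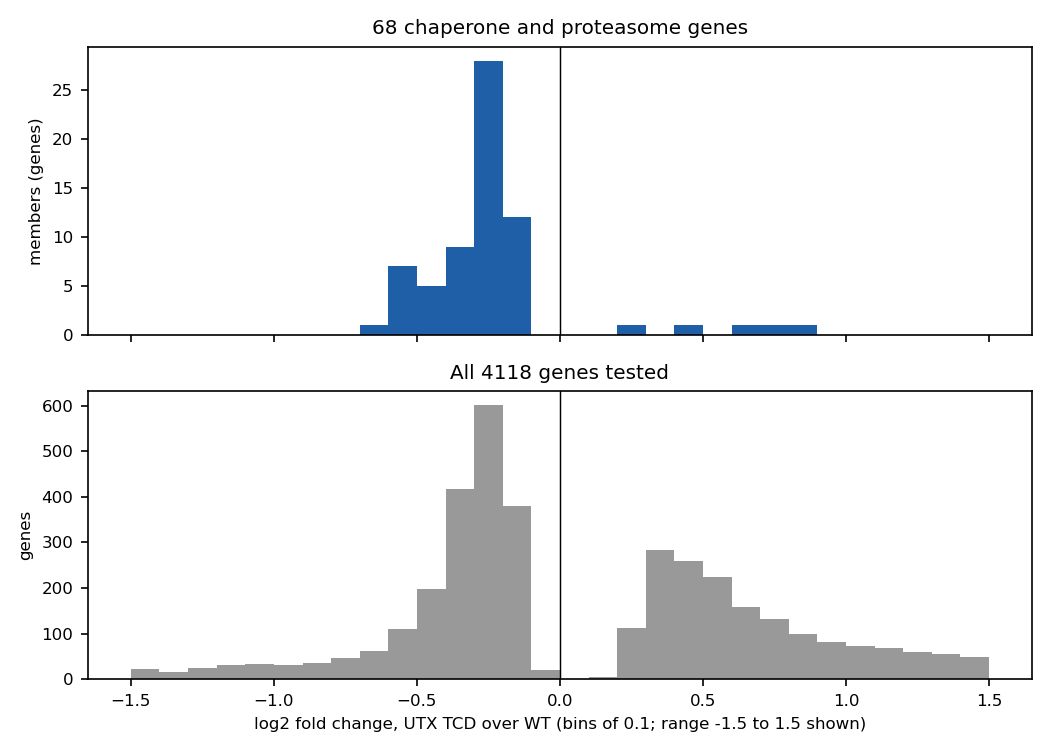
Number of genes in each bin of 0.1 of the log2 fold change, UTX TCD over WT, for the 68 chaperone and proteasome genes (top) and for all 4118 genes tested (bottom), shown from -1.5 to 1.5. The members gather between -0.4 and -0.1, with 28 of them between -0.3 and -0.2, and both panels are nearly empty between -0.1 and 0.2.

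The differences were small. Of the 68 genes, 49 lay between -0.4 and -0.1 on the log2 scale and 9 lay below -0.5, and 7 of the 34 called genes differed at least 1.5-fold. The UTX TCD and WT libraries did not overlap in 65 of the 68 genes, with UTX TCD below WT in 61 and above WT in 4; Psmb9, Dnajc2 and Hspd1-ps4 overlapped. Among all genes tested, 85.8% did not overlap, with UTX TCD below in 44.0% and above in 41.8%. Counts of calls depended strongly on single libraries and on the scaling. Lower members numbered 46, 48 and 23 without UTX TCD replicates 1, 2 and 3 and 5, 5 and 10 without WT replicates 1, 2 and 3, where 34.5%, 35.3% and 22.4% of all genes tested were lower without the UTX TCD libraries and 9.69%, 8.47% and 13.1% without the WT libraries. Higher members numbered 5, 4 and 4 without UTX TCD replicates 1, 2 and 3 and 2, 3 and 3 without WT replicates 1, 2 and 3, where 44.0%, 38.8% and 36.0% of all genes were higher without the UTX TCD libraries and 19.6%, 17.6% and 28.8% without the WT libraries. With upper-quartile scaling 15 members were lower and 4 higher (17.6% and 42.3% of all genes), and with a scaling that sets the emptiest stretch of fold changes at 0 the counts were 60 lower and 4 higher (44.5% and 37.6%). RLE scaling gave 18 lower and 4 higher (20.3% and 41.6%), DESeq2 gave 24 and 4 (22.0% and 42.8%), and a model with the replicate number gave 23 and 4 (24.9% and 39.0%). When the adjustment counted all annotated protein-coding genes as tests, 3 members were lower and 2 higher (7.19% and 15.3%). Over all genes the split was 725 lower and 1742 higher with upper-quartile scaling, 1832 lower and 1547 higher with the gap set at 0, and 1111 lower and 1692 higher with TMM, the scaling used throughout. The calls of 7 genes held with each library left out in turn: Hspb7, Dnajc15, Dnajb5, Psmg3 and Hspe1, which fell, and Hspa4l and Dnaja4, which rose. Of the 34 calls, 12 were lost with RLE scaling, those of Cct4, Cct6a, Dnajc11, Hspa9, Pfdn1, Ppid, Psma5, Psmb3, Psmb4, Psmb7, Psmc2 and Psmd9. Upper-quartile scaling lost 15, which were the same 12 with Hspd1-ps3, Hsph1 and Psmb6. DESeq2 lost 6, those of Pfdn1, Psma5, Psmb3, Psmb4, Psmc2 and Psmd9, and limma-voom lost 1, that of Psmb3. With all annotated genes as tests 29 were lost, and the calls of Hspb7, Dnajc15, Dnajb5, Hspa4l and Dnaja4 were kept.

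**Figure D2:**
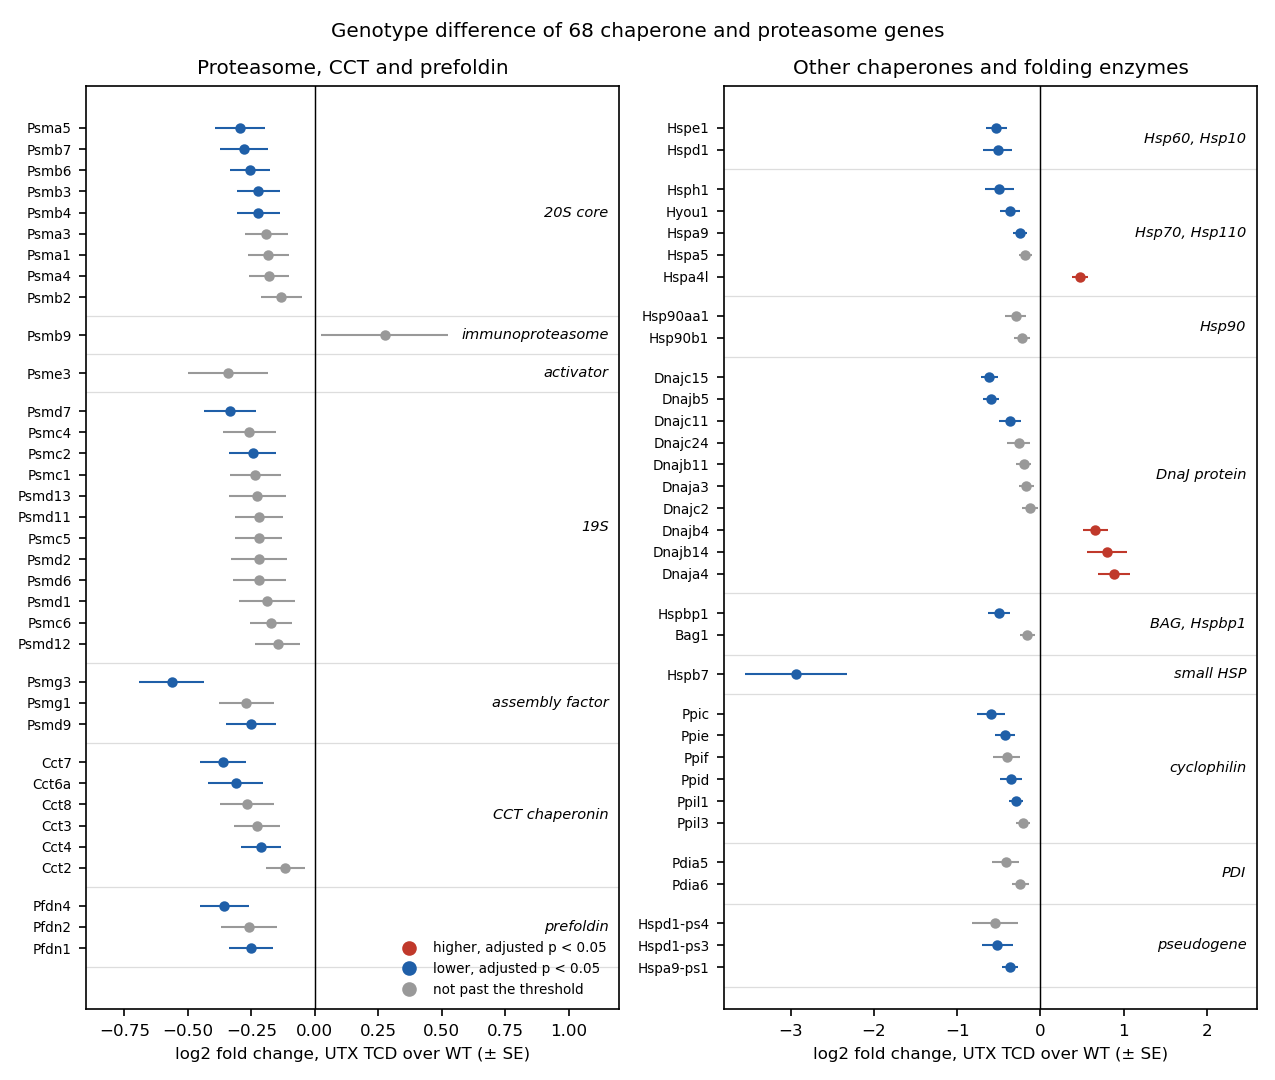
Log2 fold change (UTX TCD over WT, horizontal axis) with its standard error for each of the 68 genes, arranged by role; colours mark genes called higher, called lower and not past an adjusted p of 0.05. Nearly all points lie left of 0, most of them within 0.4 of it; Hspb7 lies farthest left at -2.94, and Dnaja4, Dnajb14, Dnajb4 and Hspa4l are the called points on the right.

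UTX TCD replicate 2 was the lowest of the UTX TCD libraries in 61 of the 68 genes and the highest in 5. Over all 4162 listed genes it was the lowest in 1764 and the highest in 1668, so it often stood at an extreme across the table. The median log2 ratio of the members to their WT mean was -0.16, -0.42 and -0.18 in UTX TCD replicates 1, 2 and 3, and over all listed genes it was -0.06, -0.13 and -0.09. The members' share of the column counts was 4.23%, 3.56% and 4.17% in UTX TCD replicates 1, 2 and 3, against 4.72%, 4.70% and 4.63% in WT replicates 1, 2 and 3. The members' median was thus negative in all 3 UTX TCD libraries and farthest from 0 in replicate 2. Rows are present mainly where the genotypes differ, which favours genes whose 3 UTX TCD libraries agree. This agreement therefore does not measure consistency between mice. In the same library the summed level of 10 listed interferon-response genes, of 15 looked for, was highest: 703, 1263 and 743 CPM in UTX TCD replicates 1, 2 and 3, against 502, 494 and 539 CPM in WT. Of 9 of these genes that were tested, 8 were called higher, where 41.1% of all genes tested were higher. Higher interferon genes numbered 10, 8 and 9 without UTX TCD replicates 1, 2 and 3, where 44.0%, 38.8% and 36.0% of all genes were higher. Without WT replicates 1, 2 and 3 they numbered 3, 3 and 5 (19.6%, 17.6% and 28.8% of all genes). DESeq2 called 6 higher (42.8% of all genes) and gave no adjusted p for Rsad2, Irf7 and Ifi44. With limma-voom 4 were higher (1654 of all genes), and with all annotated protein-coding genes counted as tests 2 were (15.3%). All 10 passed the low-count filter without UTX TCD replicate 1. Cd8b1 was also highest in UTX TCD replicate 2. Whether the interferon genes or Cd8b1 have a part in the members' values was not tested, and in bulk RNA fewer cells of a type and less RNA per cell cannot be told apart.

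**Figure D3:**
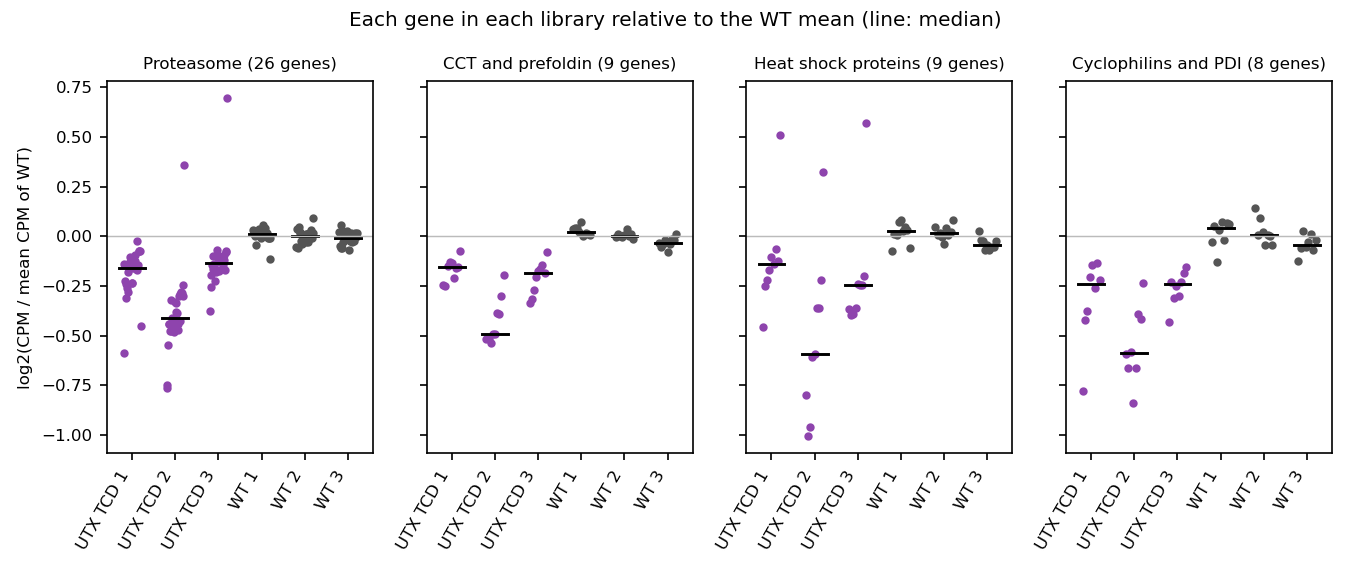
Log2 ratio of each gene's CPM to its mean in the WT libraries, in each of the 6 libraries (UTX TCD 1 to 3, then WT 1 to 3), for proteasome genes, CCT and prefoldin genes, heat shock proteins of the Hsp60, Hsp70 and Hsp90 families, and cyclophilins with protein disulfide isomerases; the line is the median. In each panel the UTX TCD medians lie under 0 and replicate 2 is the lowest, while WT values stay near 0.

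Most listed proteasome genes lay lower by a narrow margin, with 25 of 26 values negative, against 2201 of all 4118 genes tested. Over all genes tested 27.0% were called lower and 41.1% higher, at a median log2 fold change of -0.15. Of the 26 proteasome genes, 9 fell, none rose and 17 did not pass, at a median of -0.22. Together they took 1.22%, 1.06% and 1.28% of the counts in UTX TCD replicates 1, 2 and 3, against 1.35%, 1.37% and 1.35% in WT replicates 1, 2 and 3, so that the groups did not overlap. Lower proteasome genes numbered 15, 19 and 9 without UTX TCD replicates 1, 2 and 3 (34.5%, 35.3% and 22.4% of all genes). Without WT replicates 1, 2 and 3 they numbered 1, 1 and 1 (9.69%, 8.47% and 13.1%). Upper-quartile scaling gave 2 (17.6%) and the gap set at 0 gave 24 (44.5%). These shares of all genes also stand beside the family counts below. Leaving out UTX TCD replicate 1 also made Psmb9 the 1 higher proteasome gene. No other single-library setting gave a higher proteasome gene.

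The 20S core subunits form the alpha and beta rings of the barrel. Of 9 listed, 5 fell and 4 did not pass, between -0.29 and -0.13 on the log2 scale (27.0% of all genes tested were lower). Psmb6, a catalytic beta subunit with caspase-like activity, lies on chromosome 11 from 70525367 to 70527858 and had 439.8, 428 and 476 CPM in UTX TCD replicates 1, 2 and 3, against 540.2, 526 and 537 CPM in WT replicates 1, 2 and 3. The UTX TCD libraries all lay under the WT libraries, and the log2 fold change was -0.26 ± 0.08 (edgeR adjusted p = 0.025). Psma5, an alpha-ring subunit, had 180.4, 165 and 202 CPM in UTX TCD against 224, 214 and 233 CPM in WT, with no overlap and a log2 fold change of -0.29 ± 0.10 at an edgeR adjusted p = 0.031. Psmb7, the trypsin-like catalytic subunit, fell by 0.28 and Psmb3 and Psmb4 each fell by 0.22 on the log2 scale. Psma1, Psma3, Psma4 and Psmb2 did not pass, at -0.18, -0.19, -0.18 and -0.13. Calls among the core subunits were fragile: lower members numbered 3, 8 and 5 without UTX TCD replicates 1, 2 and 3 and 0, 0 and 0 without WT replicates 1, 2 and 3. In brackets after a left-out library stands the log2 fold change without it: Psmb6 was not called without WT replicate 1 (-0.25), 2 (-0.27) or 3 (-0.26), and Psma5 was not called without WT replicate 1 (-0.30), 2 (-0.33) or 3 (-0.27). With all libraries, 5 of the 9 had an unadjusted p under 0.05 in edgeR, against 3139 of all 4118 genes tested. DESeq2 called 2 of the 9 lower (22.0% of all genes) and limma-voom 4 (1196 of all genes).

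The 19S particle holds a ring of ATPases (Psmc genes), which unfold the substrate, and non-ATPase subunits (Psmd genes). Of its 12 listed genes, 2 fell and 10 did not pass, where 27.0% of all genes tested were lower. All 12 values were negative, between -0.34 and -0.15. Psmd7, the scaffold partner of the deubiquitinating subunit in the particle's lid, lies on chromosome 8 from 107580381 to 107588464 and had 628, 503 and 615 CPM in UTX TCD, against 746, 752 and 706 CPM in WT. Its groups did not overlap, and the log2 fold change was -0.34 ± 0.10 (edgeR adjusted p = 0.025). The ATPase gene Psmc2 had 543, 453 and 533 CPM in UTX TCD against 619.7, 592 and 600.3 CPM in WT, a log2 fold change of -0.24 ± 0.09 at an edgeR adjusted p = 0.046. The large scaffold subunits Psmd1 and Psmd2 did not pass, at -0.19 and -0.22. The number of lower 19S genes was 9, 7 and 2 without UTX TCD replicates 1, 2 and 3 and 0, 0 and 0 without WT replicates 1, 2 and 3. With all libraries, 5 of the 12 had an unadjusted p under 0.05 in edgeR, against 3139 of all 4118 genes tested. DESeq2 called 1 of the 12 lower (22.0% of all genes) and limma-voom 2 (1196 of all genes). Psmd7 was not called without WT replicate 1 (-0.33), 2 (-0.32) or 3 (-0.37), and Psmc2 was not called without UTX TCD replicate 3 (-0.28) or WT replicate 1 (-0.23), 2 (-0.26) or 3 (-0.25), nor with RLE (-0.20) or upper-quartile scaling (-0.17) or DESeq2 (-0.20).

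Assembly factors chaperone the building of the proteasome. Psmg3, which pairs with Psmg4 in the assembly of the alpha ring, lies on chromosome 5 from 139823592 to 139826885 and had 42.9, 38.4 and 49.7 CPM in UTX TCD replicates 1, 2 and 3, against 66.0, 62.1 and 65.5 CPM in WT replicates 1, 2 and 3. All UTX TCD libraries lay well under the WT libraries. The log2 fold change was -0.56 ± 0.13 (edgeR adjusted p = 0.01), the largest fall among the proteasome genes, and the call held with each library left out. Exons of Gm26938 on the same strand cover 9.68% of its exon bases. Psmd9, a chaperone of the 19S base, had 107, 88.3 and 101 CPM in UTX TCD against 120.2, 114 and 118 CPM in WT, a log2 fold change of -0.25 ± 0.10 with an edgeR adjusted p of 0.05 after rounding, and was not called without UTX TCD replicate 3 (-0.27) or WT replicate 1 (-0.24), 2 (-0.28) or 3 (-0.25). Psmg1, the partner of Psmg2, did not pass, at -0.27 ± 0.11. Psme3, which encodes the nuclear activator cap PA28 gamma, had 1462, 948 and 1405 CPM in UTX TCD against 1621, 1654 and 1557 CPM in WT and did not pass, at -0.34 ± 0.16 (edgeR adjusted p = 0.079). It passed without UTX TCD replicate 1 (-0.45) or 2 (-0.17).

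Psmb9 differed from the other proteasome genes in its pattern over libraries. It encodes the interferon-inducible subunit that replaces the caspase-like site in the immunoproteasome, and lies on chromosome 17 from 34181987 to 34187764 beside Tap1. Its level was 267, 467 and 589 CPM in UTX TCD replicates 1, 2 and 3, against 336, 388 and 368 CPM in WT replicates 1, 2 and 3. UTX TCD replicate 1 lay under all WT libraries and replicates 2 and 3 lay over them. The log2 fold change was 0.28 ± 0.25 (edgeR adjusted p = 0.31), and leaving out UTX TCD replicate 1 or 3 gave 0.54, which passed, or 0.01. Psmb9 was highest in UTX TCD replicate 3, whereas the summed interferon genes were highest in replicate 2. Tap1 exons on the opposite strand cover 5.79% of its exon bases, and the strand setting of the counting was not given in the sources used here. The other inducible subunit genes, Psmb8 and Psmb10, and the inducible activators Psme1 and Psme2 were not analysed here.

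Chaperones and folding enzymes held genes that fell and all 4 members that rose. Of 39 genes, 19 fell, 4 rose and 16 did not pass, at a median log2 fold change of -0.27. The shares over all genes tested were 27.0% lower and 41.1% higher, at a median of -0.15. Whether the chaperone class differs from the proteasome genes was not tested. Lower chaperone genes numbered 28, 27 and 13 without UTX TCD replicates 1, 2 and 3 (34.5%, 35.3% and 22.4% of all genes). Without WT replicates 1, 2 and 3 they numbered 4, 4 and 8 (9.69%, 8.47% and 13.1%). Higher chaperone genes numbered 4, 4 and 4 without UTX TCD replicates 1, 2 and 3 (44.0%, 38.8% and 36.0%). Without WT replicates 1, 2 and 3 the higher genes numbered 2, 3 and 3 (19.6%, 17.6% and 28.8%). Upper-quartile scaling gave 12 lower and 4 higher (17.6% and 42.3% of all genes). The scaling with the gap at 0 gave 34 lower and 4 higher (44.5% and 37.6%).

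The mitochondrial chaperonin pair fell. Hspd1 encodes Hsp60, the ring, and Hspe1 encodes Hsp10, its lid; they lie head to head on chromosome 1, Hspd1 from 55077835 to 55088243 on the minus strand and Hspe1 from 55088132 to 55091307 on the plus strand. Hspd1 had 2698, 1597 and 2439 CPM in UTX TCD replicates 1, 2 and 3, against 3238, 3218 and 3169 CPM in WT replicates 1, 2 and 3. Hspe1 had 201, 159 and 214 CPM in UTX TCD, against 262, 284 and 281 CPM in WT. For both genes all UTX TCD libraries lay under the WT libraries and UTX TCD replicate 2 was the lowest. The log2 fold change of Hspd1 was -0.52 ± 0.18 (edgeR adjusted p = 0.035), and it was -0.33 without UTX TCD replicate 2. That call was lost without WT replicate 1 (-0.51), 2 (-0.52) or 3 (-0.53). Hspe1 fell by 0.53 ± 0.12 on the log2 scale (edgeR adjusted p = 0.01), with the call held whichever library was left out. Their exons overlap on opposite strands, over 4.24% of the exon bases of Hspd1 and 7.60% of those of Hspe1. Reads in that part could not be told apart if strand was ignored.

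Hsp70 and Hsp110 proteins went both ways. Hsph1, an Hsp110 that acts as a nucleotide exchange factor for Hsp70, lies on chromosome 5 from 149614287 to 149636376 and had 848, 508 and 753 CPM in UTX TCD replicates 1, 2 and 3, against 991, 1001 and 972 CPM in WT replicates 1, 2 and 3. Its profile over the libraries was that of Hspd1, with UTX TCD replicate 2 far under the rest and no overlap between the groups. It fell by 0.49 ± 0.17 on the log2 scale (edgeR adjusted p = 0.036), or by 0.31 without UTX TCD replicate 2, and was not called without UTX TCD replicate 3 (-0.55) or WT replicate 1 (-0.49), 2 (-0.49) or 3 (-0.51). Hspa4l, the Hsp110 relative also known as Apg-1, rose. It lies on chromosome 3 from 40744495 to 40796103 and had 356, 313 and 372 CPM in UTX TCD, against 240.2, 265 and 246 CPM in WT. Every UTX TCD library lay above every WT library, the log2 fold change was 0.47 ± 0.09 (edgeR adjusted p = 0.007), and the call held with each library left out. The mitochondrial Hsp70 gene Hspa9 fell by 0.25 ± 0.09 (edgeR adjusted p = 0.041), with 2552, 2190 and 2369 CPM in UTX TCD against 2860, 2885 and 2680 CPM in WT. It was not called without UTX TCD replicate 3 (-0.24) or WT replicate 1 (-0.23), 2 (-0.23) or 3 (-0.28), nor with RLE (-0.20) or upper-quartile scaling (-0.17).

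In the endoplasmic reticulum, Hyou1, which serves there as the exchange factor of the Hsp70 BiP, fell. It had 755, 558 and 662 CPM in UTX TCD, against 893, 846 and 810.1 CPM in WT, a log2 fold change of -0.37 ± 0.12 at an edgeR adjusted p = 0.028, and was not called without UTX TCD replicate 3 (-0.37) or WT replicate 1 (-0.33), 2 (-0.38) or 3 (-0.41). Hspa5, the gene of BiP itself, had 2607, 2433 and 2469 CPM in UTX TCD and 2897, 2883 and 2733 CPM in WT, and Hsp90b1, the Hsp90 of this compartment (Grp94), had 2151, 1755 and 1897 CPM in UTX TCD and 2325, 2261 and 2165 CPM in WT. Neither pair of groups overlapped, yet neither gene passed, at -0.18 ± 0.08 (edgeR adjusted p = 0.065) and -0.22 ± 0.10 (edgeR adjusted p = 0.071). Hspa5 passed without UTX TCD replicate 1 (-0.21) or 2 (-0.17), and Hsp90b1 without UTX TCD replicate 1 (-0.30). The cytosolic, stress-inducible Hsp90 gene Hsp90aa1 had 2202, 1569 and 1998 CPM in UTX TCD and 2500, 2300 and 2290 CPM in WT and did not pass, at -0.30 ± 0.13 (edgeR adjusted p = 0.067). It passed without UTX TCD replicate 1 (-0.40) or 2 (-0.18). The constitutive cytosolic forms Hsp90ab1 and Hspa8 were not analysed here. Of 8 listed genes of the endoplasmic reticulum, 2 fell, 1 rose and 5 did not pass (27.0% lower and 41.1% higher among all genes). The median of the 8 was -0.23. Lower genes among them numbered 6, 4 and 1 without UTX TCD replicates 1, 2 and 3 and 0, 0 and 1 without WT replicates 1, 2 and 3, and the higher gene, Dnajb14, was not called without any 1 of the WT libraries.

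Promoters of the members were searched for the letters of known stress elements. RefSeq promoters (GRCm38.p6), from 250 bases before to 50 bases after each gene's start, matched 52 of the 68 genes by symbol. Heat shock factors bind inverted repeats of GAA. A triple repeat, GAANNTTC with a further GAA after 2 more bases or a further TTC in the mirrored place, stood on either strand in 3 of the 52 members, 5.77%, against 0.662% of 27025 genes, and the 3 were Hspd1, Hspe1 and Hsph1, which were all called lower. The 2-unit repeat GAANNTTC, which every triple repeat contains, stood in 6 members, 11.5%, against 9.04% of all genes; the other 3 were Cct2, Dnaja4 and Psmb9. The endoplasmic reticulum stress element, CCAAT and CCACG with 9 bases between them, stood in 3 members, Hspa5, Hsp90b1 and Pdia6, none past the threshold, against 0.137% of all genes. A match is a run of letters in this window and not a measured binding site. The promoters below carry these matches, in capitals, for the 3 genes with the triple repeat (Hspd1 and Hspe1 share theirs, from 55088059 to 55088076), for a gene that rose and for 2 genes of the endoplasmic reticulum.
Hspe1, chr1:55087898-55088197, plus strand: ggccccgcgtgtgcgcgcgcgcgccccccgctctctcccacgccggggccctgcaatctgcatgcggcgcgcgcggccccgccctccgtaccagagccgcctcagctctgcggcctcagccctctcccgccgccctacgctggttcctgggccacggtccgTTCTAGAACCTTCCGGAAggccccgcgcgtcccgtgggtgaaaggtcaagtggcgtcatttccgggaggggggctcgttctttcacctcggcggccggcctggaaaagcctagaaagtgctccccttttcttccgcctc
Hsph1, chr5:149636287-149636586, minus strand: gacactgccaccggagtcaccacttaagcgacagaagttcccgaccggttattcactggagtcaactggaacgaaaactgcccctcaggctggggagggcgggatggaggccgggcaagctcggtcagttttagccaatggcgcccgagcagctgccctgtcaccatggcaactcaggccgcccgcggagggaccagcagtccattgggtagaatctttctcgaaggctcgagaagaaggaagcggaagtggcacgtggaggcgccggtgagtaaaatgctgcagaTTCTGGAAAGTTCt
Dnaja4, chr9:54699309-54699608, plus strand: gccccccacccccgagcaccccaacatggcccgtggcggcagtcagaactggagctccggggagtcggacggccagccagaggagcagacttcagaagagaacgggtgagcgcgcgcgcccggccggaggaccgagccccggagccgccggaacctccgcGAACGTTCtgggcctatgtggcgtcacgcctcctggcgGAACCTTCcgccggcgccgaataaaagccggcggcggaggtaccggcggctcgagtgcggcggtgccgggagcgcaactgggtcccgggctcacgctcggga
Hspa5, chr2:34771840-34772139, plus strand: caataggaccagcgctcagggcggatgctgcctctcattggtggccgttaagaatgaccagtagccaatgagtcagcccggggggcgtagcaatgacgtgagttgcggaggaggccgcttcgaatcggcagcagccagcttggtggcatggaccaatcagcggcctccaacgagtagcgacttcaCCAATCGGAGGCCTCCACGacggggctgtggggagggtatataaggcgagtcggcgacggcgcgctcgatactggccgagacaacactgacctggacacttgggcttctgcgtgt
Hsp90b1, chr10:86705395-86705694, minus strand: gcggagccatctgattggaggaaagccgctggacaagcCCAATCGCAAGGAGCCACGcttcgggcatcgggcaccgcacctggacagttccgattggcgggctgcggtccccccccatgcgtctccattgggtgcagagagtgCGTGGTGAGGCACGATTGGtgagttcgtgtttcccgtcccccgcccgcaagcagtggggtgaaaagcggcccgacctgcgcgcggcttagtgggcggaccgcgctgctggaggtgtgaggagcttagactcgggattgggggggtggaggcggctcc
With the first transcribed base counted as 1, the repeat of Hspe1 began at -89 and that of Hsph1 at 37, inside the transcribed part. From another start of Hsph1 the same repeat began at 16. Dnaja4 held GAANNTTC at -90 and -52. The element of Hspa5 began at -65, and Hsp90b1 held one at -212 and one on the other strand at -107. The repeat that Hspd1 shares began at -144 from the RefSeq start of Hspd1. By GENCODE, which places Hspd1 from 55077835 to 55088243, it lies inside that gene, so the 2 annotations differ on the start. The 3 triple repeats stand at 2 places in the genome, and the calls of Hspd1 and Hsph1 were lost without any 1 of the WT libraries. The members with the short repeat alone went different ways: Dnaja4 rose, and Cct2 and Psmb9 did not pass, at -0.12 and 0.28.

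**Figure D4:**
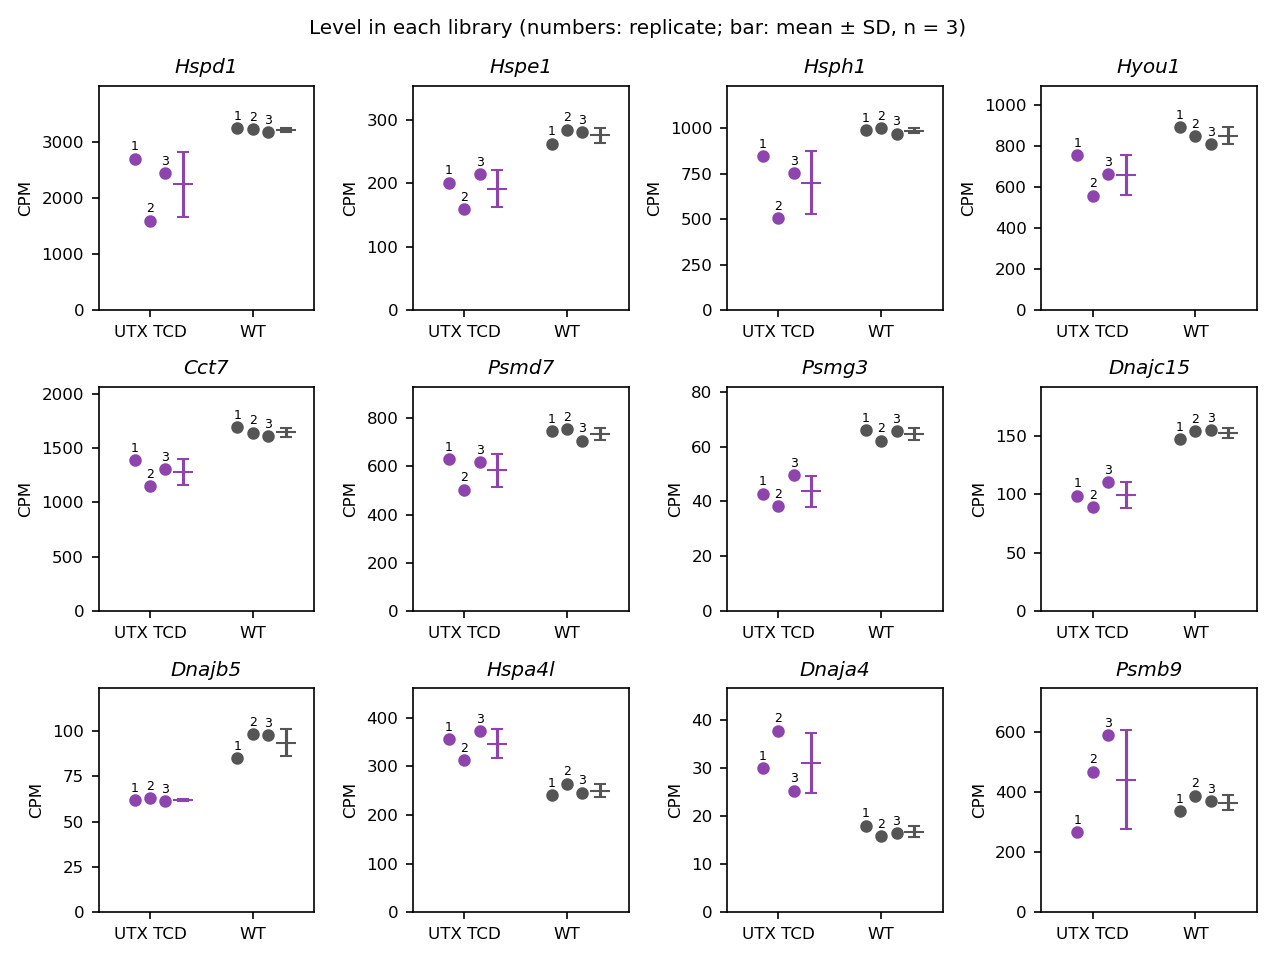
CPM of 12 members in each library, UTX TCD on the left and WT on the right of each panel, with replicate numbers at the points and the mean ± SD (n = 3) beside them; axes start at 0. Hspd1 and Hsph1 show UTX TCD replicate 2 far under the other libraries, Dnajb5, Dnajc15 and Psmg3 are lower in all UTX TCD libraries, Hspa4l and Dnaja4 are higher in all of them, and Psmb9 spreads to both sides of WT.

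DnaJ proteins, the cofactors of Hsp70, held genes called in both directions. Calls in both directions were common in the whole table, with 27.0% of genes tested lower and 41.1% higher. Of 10 listed DnaJ genes 3 fell, 3 rose and 4 did not pass, 7 had a negative log2 fold change and the median was -0.19. Lower DnaJ genes numbered 4, 3 and 3 without UTX TCD replicates 1, 2 and 3 (34.5%, 35.3% and 22.4% of all genes). Without WT replicates 1, 2 and 3 they numbered 2, 2 and 2 (9.69%, 8.47% and 13.1%). Dnajc15, which sits in the mitochondrial inner membrane beside the protein import motor, lies on chromosome 14 from 77820681 to 77875125 and had 98.8, 88.9 and 110.5 CPM in UTX TCD replicates 1, 2 and 3, against 147, 154 and 155 CPM in WT replicates 1, 2 and 3. Dnajb5, a cytosolic class B member on chromosome 4 from 42949814 to 42959425, had 61.8, 62.8 and 61.5 CPM in UTX TCD, against 84.9, 98.0 and 97.7 CPM in WT. Both genes lay lower in every UTX TCD library, and the UTX TCD values of Dnajb5 were nearly the same in all 3. The log2 fold changes were -0.61 ± 0.10 for Dnajc15 (edgeR adjusted p = 0.0037) and -0.59 ± 0.10 for Dnajb5 (edgeR adjusted p = 0.004), and both calls held with each library left out. Dnajc11, of the mitochondrial outer membrane, fell by 0.36 ± 0.13 on the log2 scale, with a call lost without WT replicate 1 (-0.33), 2 (-0.39) or 3 (-0.38).

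The DnaJ genes that rose had low levels. Dnaja4, a class A cochaperone of the cytosol, lies on chromosome 9 from 54698873 to 54716315 and had 30.0, 37.7 and 25.3 CPM in UTX TCD replicates 1, 2 and 3, against 18.03, 15.8 and 16.5 CPM in WT replicates 1, 2 and 3. Its groups were well apart, with a log2 fold change of 0.89 ± 0.19 at an edgeR adjusted p = 0.0087 that held with each library left out. Exons of Wdr61 on the opposite strand cover 44.1% of the exon bases of Dnaja4, and without strand, reads in that part cannot be told from those of Wdr61. Dnajb4, a relative of Dnajb1, had 31.8, 37.1 and 30.8 CPM in UTX TCD against 19.4, 22.7 and 21.1 CPM in WT, a log2 fold change of 0.66 ± 0.15 at an edgeR adjusted p = 0.011, and was not called without WT replicate 1 (0.60). Dnajb14, anchored in the membrane of the endoplasmic reticulum, had 22.6, 43.2 and 31.5 CPM in UTX TCD against 18.7, 20.1 and 17.2 CPM in WT. All its UTX TCD libraries lay above WT, and UTX TCD replicate 2 was the highest. Its log2 fold change was 0.80 ± 0.24 (edgeR adjusted p = 0.024), or 0.53 without UTX TCD replicate 2, and it was not called without WT replicate 1 (0.80), 2 (0.85) or 3 (0.74). Dnajb1, the main partner of inducible Hsp70, was not analysed here. The 4 DnaJ genes that did not pass (Dnaja3, Dnajb11, Dnajc2 and Dnajc24) lay between -0.26 and -0.13. Higher DnaJ genes numbered 3, 3 and 3 without UTX TCD replicates 1, 2 and 3 (44.0%, 38.8% and 36.0% of all genes). Without WT replicates 1, 2 and 3 they numbered 1, 2 and 2 (19.6%, 17.6% and 28.8%).

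Hspb7, a small heat shock protein best known from heart and skeletal muscle, had very few reads. It lies on chromosome 4 from 141420779 to 141425311 and had 13, 1 and 6 counts in UTX TCD replicates 1, 2 and 3, against 60, 48 and 55 counts in WT replicates 1, 2 and 3. These were 1.57, 0.106 and 0.625 CPM in UTX TCD and 5.94, 5.21 and 6.24 CPM in WT. The UTX TCD libraries all lay well under WT, at few reads, and the log2 fold change was -2.94 ± 0.61 (edgeR adjusted p = 0.0079), between -3.93 and -2.42 with 1 library left out and called each time. Hspbp1, which releases ADP from Hsp70, had 200.5, 143 and 194 CPM in UTX TCD against 255, 242 and 259.5 CPM in WT. Its groups did not overlap, and it fell by 0.49 ± 0.13 on the log2 scale (edgeR adjusted p = 0.017), with the call lost without WT replicate 1 (-0.49), 2 (-0.53) or 3 (-0.48). The exchange factor gene Bag1 did not pass, at -0.16 ± 0.09.

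The CCT chaperonin folds actin and tubulin in a ring of related subunits, and 6 of its genes were listed. Of these, 3 fell, none rose and 3 did not pass, at a median of -0.25 (27.0% lower and 41.1% higher among all genes). Cct7 lies on chromosome 6 from 85451514 to 85468475 and had 1386, 1151 and 1303 CPM in UTX TCD replicates 1, 2 and 3, against 1690, 1640 and 1606 CPM in WT replicates 1, 2 and 3. Cct6a had 1889, 1446 and 1739 CPM in UTX TCD, against 2159, 2098 and 2040 CPM in WT. The groups did not overlap for either gene, and UTX TCD replicate 2 was the lowest for both. The log2 fold changes were -0.36 ± 0.09 for Cct7 (edgeR adjusted p = 0.014) and -0.31 ± 0.11 for Cct6a (edgeR adjusted p = 0.037). Cct7 was not called without WT replicate 1 (-0.35) or 2 (-0.37), and Cct6a without UTX TCD replicate 3 (-0.33) or WT replicate 1 (-0.29), 2 (-0.32) or 3 (-0.34). Exons of Psph on the opposite strand cover 12.5% of the exon bases of Cct6a. Cct4 fell by 0.21 ± 0.08, and Cct8, Cct3 and Cct2 did not pass, at -0.27, -0.23 and -0.12. The 6 subunits work in 1 ring, and their values ran from -0.36 to -0.12; whether they differ from each other was not tested. Lower CCT genes numbered 5, 5 and 1 without UTX TCD replicates 1, 2 and 3 and 0, 0 and 1 without WT replicates 1, 2 and 3.

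Prefoldin showed values in the same range. Pfdn4 had 103, 85.7 and 98.7 CPM in UTX TCD against 126, 124 and 118 CPM in WT, and Pfdn1 had 174, 154 and 179.6 CPM in UTX TCD against 202, 207 and 196 CPM in WT. Both fell without overlap, by 0.36 ± 0.10 for Pfdn4 (edgeR adjusted p = 0.018) and by 0.25 ± 0.09 for Pfdn1 (edgeR adjusted p = 0.036) on the log2 scale. Pfdn2 did not pass, at -0.26 ± 0.11. Pfdn4 was not called without WT replicate 1 (-0.34) or 2 (-0.35), and Pfdn1 without WT replicate 1 (-0.25), 2 (-0.24) or 3 (-0.28). Antisense exons of Gm16796 cover 25.4% of the exon bases of Pfdn4.

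Cyclophilins had the lowest median of the families with 5 or more listed genes, -0.38. Of 6 cyclophilin genes 4 were called lower, where 27.0% of all genes tested were, and 2 did not pass the threshold. Ppie and Ppil1 belong to the spliceosome. Ppie had 146, 124 and 167 CPM in UTX TCD replicates 1, 2 and 3, against 203, 197 and 188 CPM in WT replicates 1, 2 and 3, and Ppil1 had 284, 259 and 290.1 CPM in UTX TCD, against 336, 342 and 343 CPM in WT. Neither gene's groups overlapped, and the WT libraries of Ppil1 lay close together. The log2 fold changes were -0.43 ± 0.12 for Ppie (edgeR adjusted p = 0.018) and -0.29 ± 0.08 for Ppil1 (edgeR adjusted p = 0.018). Ppic, a cyclophilin of the secretory pathway, had 17.5, 19.9 and 22.2 CPM in UTX TCD against 29.3, 33.1 and 27.5 CPM in WT and fell by 0.59 ± 0.17 on the log2 scale (edgeR adjusted p = 0.019). Ppid, an Hsp90 cochaperone, fell by 0.35 ± 0.13. Ppif, the mitochondrial cyclophilin D that regulates the permeability transition pore, did not pass, at -0.41 ± 0.16 (edgeR adjusted p = 0.052), nor did Ppil3, at -0.20 ± 0.08. Calls were lost for Ppie without WT replicate 1 (-0.41) or 2 (-0.43), for Ppil1 without WT replicate 1 (-0.30), 2 (-0.29) or 3 (-0.29), for Ppic without WT replicate 1 (-0.61) or 2 (-0.52) and for Ppid without UTX TCD replicate 3 (-0.38) or WT replicate 1 (-0.32), 2 (-0.38) or 3 (-0.37). Lower cyclophilin genes numbered 5, 6 and 3 without UTX TCD replicates 1, 2 and 3 and 0, 0 and 2 without WT replicates 1, 2 and 3. The disulfide isomerase genes Pdia5 and Pdia6 did not pass, at -0.42 ± 0.17 and -0.24 ± 0.10. Of 15 annotated FKBP genes, which encode the other large family of proline isomerases, 0 were listed, and Ppia, the most familiar cyclophilin, was not analysed here.

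The 3 pseudogenes resemble Hspd1 and Hspa9 in sequence. Hspd1-ps3 had 348, 201 and 312 CPM in UTX TCD replicates 1, 2 and 3, against 423, 409 and 399 CPM in WT replicates 1, 2 and 3, and a log2 fold change of -0.52 ± 0.18 at an edgeR adjusted p = 0.039, beside -0.52 ± 0.18 for Hspd1. It was -0.32 without UTX TCD replicate 2, and the call was lost without UTX TCD replicate 3 (-0.58) or WT replicate 1 (-0.50), 2 (-0.52) or 3 (-0.54). Hspa9-ps1 had 53.0, 57.6 and 56.1 CPM in UTX TCD against 71.0, 74.1 and 69.6 CPM in WT and fell by 0.36 ± 0.10 on the log2 scale (edgeR adjusted p = 0.017), with the call lost without WT replicate 1 (-0.37) or 2 (-0.34). Hspd1-ps4 did not pass, at -0.55 ± 0.28. How reads that match a parent and its pseudogene were assigned was not given in the sources used here, so these rows may hold reads of Hspd1 and Hspa9 and are not separate measurements.

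Grouped by place in the cell, 7 of 10 mitochondrial genes of these families that were looked for had a row. Of the 7, 5 fell (27.0% of all genes tested were lower): Hspd1, Hspe1, Hspa9, Dnajc11 and Dnajc15. Ppif and Dnaja3 did not pass. The median was -0.41, and the 7 genes summed to 6395, 4655 and 5945 CPM in UTX TCD replicates 1, 2 and 3, against 7485, 7482 and 7205 CPM in WT replicates 1, 2 and 3. UTX TCD replicate 2 was again lowest, and the groups did not overlap. Lower genes numbered 6, 6 and 4 without UTX TCD replicates 1, 2 and 3 and 2, 2 and 2 without WT replicates 1, 2 and 3. This grouping was made with the results known, and its difference from the other members was not tested.

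Levels can be compared between genes only per length, here as CPM per kilobase of the longest principal transcript, which 59 of the 68 genes had. Hspd1 led in WT at 1324 CPM per kilobase, and in UTX TCD, at 926, it stood after Cct2, which had 1214 CPM per kilobase in UTX TCD and 1317 in WT. Hspa9 had 777 CPM per kilobase in UTX TCD and 921 in WT, Hsp90b1 685 CPM per kilobase in UTX TCD and 796 in WT and Hspa5 682 CPM per kilobase in UTX TCD and 773 in WT. Among the CCT subunits, Cct8, Cct4, Cct3 and Cct7 had levels of 524 to 658 CPM per kilobase in UTX TCD and 674 to 792 in WT, and Cct2 stood above them in both genotypes. Core proteasome genes ranged from 88.8 CPM per kilobase for Psma3 to 584 for Psmb2 in UTX TCD, and from 101 for Psma3 to 669.7 for Psmb6 in WT. The genes that rose stood low on this scale: Hspa4l had 36.6 CPM per kilobase in UTX TCD and 26.4 in WT, Dnajb4 13.5 CPM per kilobase in UTX TCD and 8.55 in WT, Dnaja4 10.3 CPM per kilobase in UTX TCD and 5.59 in WT and Dnajb14 3.42 CPM per kilobase in UTX TCD and 1.97 in WT. Genes of different transcript annotation can shift on this scale, and no order between neighbours was tested.

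Regulators and partners outside these families moved in both directions. So did the table as a whole, with 27.0% of genes tested lower and 41.1% higher, at a median log2 fold change of -0.15. Of 83 such regulators and partners looked for, 24 were listed, and 6 fell, 5 rose and 13 did not pass, at a median of -0.22. Hsf1, the main transcription factor of the heat shock response, had 166, 125 and 162 CPM in UTX TCD replicates 1, 2 and 3, against 196, 184 and 187 CPM in WT replicates 1, 2 and 3, with no overlap and a log2 fold change of -0.33 ± 0.12 at an edgeR adjusted p = 0.043. It was -0.21 without UTX TCD replicate 2 and not called without WT replicate 1 (-0.30), 2 (-0.35) or 3 (-0.34). The mitochondrial protease gene Clpp had 151, 120.4 and 143 CPM in UTX TCD against 200.5, 208 and 201 CPM in WT and fell by 0.56 ± 0.10 on the log2 scale (edgeR adjusted p = 0.0051). Its call held with each library left out. The proteasome maturation factor Pomp fell by 0.35 ± 0.11, the endoplasmic reticulum chaperone gene Calr by 0.29 ± 0.11, and Manf and Creld2, which the unfolded protein response induces, by 0.30 ± 0.08 and 0.43 ± 0.11. Xbp1, a transcription factor of that response, rose, with 388, 475 and 391 CPM in UTX TCD against 293, 250.1 and 289.5 CPM in WT (log2 fold change 0.59 ± 0.11, edgeR adjusted p = 0.0058), and this call also held with each library left out.

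The stress-induced factor Ddit3 (CHOP) had 27.7, 73.1 and 29.7 CPM in UTX TCD, against 20.4, 20.1 and 22.2 CPM in WT. UTX TCD replicate 2 stood far above the rest, the log2 fold change was 1.06 ± 0.37 (edgeR adjusted p = 0.035) and it was 0.45 without that library. Nfe2l2, the master regulator of the oxidative stress response, rose by 0.29 ± 0.08, the autophagy receptor gene Sqstm1 by 0.29 ± 0.10, and Hsf4, a relative of Hsf1 with few reads, by 2.23 ± 0.55 on the log2 scale. Calls were lost for Ddit3 without WT replicate 1 (1.04), 2 (1.02) or 3 (1.10), for Nfe2l2 without WT replicate 1 (0.26), 2 (0.28) or 3 (0.30), for Sqstm1 without UTX TCD replicate 3 (0.31) or WT replicate 1 (0.26), 2 (0.26) or 3 (0.33) and for Hsf4 without WT replicate 1 (2.06) or 2 (2.01). Among the genes that fell, they were lost for Pomp without WT replicate 1 (-0.34), 2 (-0.38) or 3 (-0.34), for Calr without UTX TCD replicate 3 (-0.32) or WT replicate 1 (-0.25), 2 (-0.29) or 3 (-0.35), for Manf without WT replicate 1 (-0.28) or 2 (-0.30) and for Creld2 without WT replicate 1 (-0.43) or 2 (-0.42). The call of Hsf1 was also lost with RLE scaling, upper-quartile scaling and DESeq2, that of Calr with RLE and upper-quartile scaling, that of Sqstm1 with the gap set at 0 and that of Ddit3 with limma-voom. With all annotated genes as tests, 9 of the 11 calls were lost, and those of Clpp and Xbp1 were kept. Lower genes of this list numbered 11, 12 and 5 without UTX TCD replicates 1, 2 and 3 (34.5%, 35.3% and 22.4% of all genes). Without WT replicates 1, 2 and 3 they numbered 1, 1 and 3 (9.69%, 8.47% and 13.1%). Higher genes numbered 6, 5 and 4 without UTX TCD replicates 1, 2 and 3 (44.0%, 38.8% and 36.0%). Without WT replicates 1, 2 and 3 the higher genes numbered 1, 1 and 2 (19.6%, 17.6% and 28.8%).

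**Figure D5:**
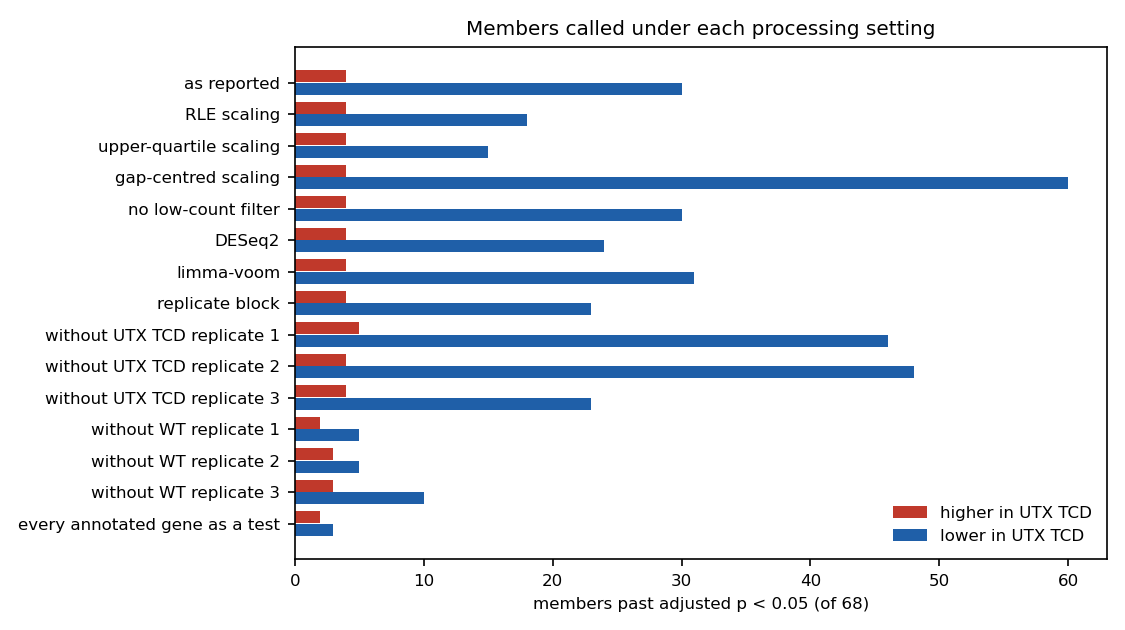
Number of the 68 members called higher and lower in UTX TCD cells (adjusted p under 0.05) under the reported setting and each alternative, as horizontal bars from 0. The lower count is 30 as reported and ranges from 3, with all annotated genes counted as tests, to 60, with the gap in the fold changes set at 0, while the higher count stays between 2 and 5.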

How the data were processed

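The authors deposited raw counts, reads per gene with no scaling, in 1 column per library, with every column tied to its sample by genotype and number. FastQC, HISAT2 and HTSeq were used with genome build mm10, per the submitters' processing notes; versions, annotation and strand setting were not given in the sources used here. All 4162 rows were fitted in edgeR 4.0.16 (R 4.3.3) with the quasi-likelihood F test, TMM scaling, genotype as the only term, a low-count filter (minimum count 10, minimum total 15) that left out 44 genes, and Benjamini-Hochberg adjustment over 4118 genes. Adjustment over a table chosen on the genotype difference counts too few tests, so adjusted p-values are too small. The fit was also run on simulated data with 200 changed genes and the spread of the WT libraries in both groups. In the table itself the coefficient of variation was 22.3% among UTX TCD and 8.01% among WT libraries, and 68.1% of genes were called. The simulation therefore does not test the fit under unequal spread or with most genes changed. Standard errors are the absolute log2 fold change over the square root of F. CPM are counts scaled to a common total of the listed genes with TMM factors. Gene positions and exon overlaps come from GENCODE (GRCm38).

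The members were matched by symbol alone, but the symbol pattern and the lists were set with earlier results of these data known. Given in full are a panel of 19 chaperone and proteasome genes where listed, the 8 largest rises and falls among called members with groups apart and average log2 CPM of at least 2, and the 2 called members of each role with the smallest p. Other genes are given by value or count. Alternatives were other scalings, no filter, DESeq2 1.42.0, limma-voom (limma 3.58.1), a replicate block, every annotated protein-coding gene as a test, and each library left out.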

Additional observations from a re-analysis of the deposited data

How the results depend on the processing

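No log2 fold change of a member changed sign among the alternatives run. The table held almost no values near 0, so few changes of sign were possible, and Psmb9 came to 0.01 without UTX TCD replicate 3. Counting all annotated protein-coding genes as tests (21951), 630 genes were higher and 296 lower, of the members 2 and 3, with 0 proteasome genes lower and, of the chaperones, 2 higher and 3 lower. By edgeR's unadjusted p under 0.05, 13 of 26 proteasome genes differed, against 3139 of all 4118 genes tested. DESeq2 called 4 proteasome genes lower (22.0% of all genes). Upper-quartile scaling gave 725 lower genes, 15 members, 2 proteasome genes and 12 chaperones. The gap set at 0 gave 1832, 60, 24 and 34. RLE scaling gave 18 lower members and 3 proteasome genes. These scalings moved the median of all genes by 0.08, -0.07 and 0.04. With 1 library left out, all genes ranged from 730 to 1824 higher and 351 to 1458 lower, members from 2 to 5 and 5 to 48, proteasome genes from 0 to 1 and 1 to 19, and chaperones from 2 to 4 and 4 to 28. Deviations from the group means correlated at 0.30, -0.28 and 0.19 between UTX TCD and WT libraries of the same number. Between libraries of different numbers the correlations ran from -0.45 to 0.21, so these values do not settle whether the numbers mark pairs. A replicate block gave 4 lower proteasome genes, 23 lower and 4 higher members, and 1607 higher and 1026 lower genes. Under the block the calls of Cct4, Hspa9, Pfdn1, Psmb3, Psmb4, Psmb7, Psmc2, Psmd9, Calr and Sqstm1 missed the threshold and Ppif passed it. The cause of these shifts was not tested. With 3 mice per genotype and counts of listed genes only, differences of the size seen here lie near the threshold: 42 of 68 adjusted p-values fell between 0.03 and 0.1.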
